A study of Mus musculus with 24 samples.

Results

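The renin-angiotensin system genes of the mouse left ventricle were read from the deposited expression table by gene symbol. Of 9 genes listed, 8 were found among the 14912 genes of the table, namely Agt, Ace, Enpep, Lnpep, Agtr1a, Agtrap, Mas1 and Atp6ap2. The ninth, Agtr2, was not analysed here. The list names genes by their place in the pathway and uses no measured value.

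Angiotensinogen, the product of Agt, is cut by renin to angiotensin I, which the angiotensin-converting enzyme Ace turns into angiotensin II (ANG II), the peptide that was infused into these mice. ANG II acts mainly through the AT1 receptor, encoded in the mouse by Agtr1a and Agtr1b, and raises blood pressure, contracts vessels and promotes growth and fibrosis of the heart. Other peptidases, among them the aminopeptidase A encoded by Enpep, shorten angiotensins to peptides that act on other receptors, such as the angiotensin-(1-7) receptor encoded by Mas1.

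The hypertensive-LVH group (left ventricular hypertrophy) comprised 12 samples from mice given ANG II at 1500 ng/kg/min by subcutaneous osmotic pump for 7 days, and the control group comprised 12 samples from mice given saline in the same way for 7 days. All mice were wild type, male C57BL/6J by the study's methods, and no age is given in the sources used here. Hearts were flushed with saline before the left ventricle was taken, and RNA of the whole ventricle, with all of its cell types, was sequenced. The labels give the tissue as left ventricle, although their extraction text speaks of CRC cells. Cardiomyocyte markers were high in every sample, with a summed level over 8 genes of 30865 to 44059 FPKM in the hypertensive-LVH group and of 40794 to 50787 FPKM in the control group. FPKM are fragment counts scaled to transcript length and library size. The sums of all values per sample ranged from 460715 to 515185 FPKM in the ANG II mice and from 482319 to 567727 FPKM in the control group, and the read depth is not given in the sources used here.

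The deposited values fall into 4 sets of samples, numbered 1 to 3, 4 to 6, 7 to 9 and 10 to 12 in each group, within which each gene had been shifted and scaled. This is seen from values tied between samples, which occurred in 215 to 541 genes in each pair of samples of a group within a set and in 0 genes between sets, whole hundredths left out. The shift leaves 2741 negative values (0.766%), 2 of them in Agt, and the level of a whole set can therefore not be compared with that of another set. Since the size of the shift is unknown for each gene, ratios of FPKM are not given, and levels of different genes are set beside each other only as deposited. For this reason the differences of the 8 genes are also given within the sets, as values or as signs. They are given as well on the FPKM scale recovered for the values before the shift, with an exact permutation test within the sets. Group ranges, medians and counts of samples above or below the other group compare deposited values across sets, and so depend on the shift. In the model of the recovery, a group term shared by the sets was kept out of the scaling. Deposited differences and overlap of the groups within a set can therefore differ from those before the shift. In samples 7 to 9 the difference in Ace was 8.97 FPKM as deposited and 14.7 FPKM before. In samples 4 to 6 the groups overlapped for Agtr1a as deposited and not before the shift. The control sample 2 stood apart by markers of fat and atrium, and leaving out it or any other single mouse changed none of the calls of the 8 genes.

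In the hypertensive-LVH group, Ace and Atp6ap2 were higher, and Agtr1a and Mas1 were lower, than in the control group. Thus 4 of the 8 genes passed an adjusted p of 0.05 in the limma fit of all genes, 2 in each direction, where 33.5% of the 14026 genes tested passed, 20.9% being higher and 12.6% lower. With 8 genes, this count is not read as setting them apart from the other genes. The median difference of the 8 genes was -0.02 on the log2(FPKM + 1) scale, against 0.05 over all genes, and the median size of the difference regardless of sign was 0.22, against 0.12. Ace alone also passed the study's threshold, which further asks for a log2 fold change over 0.5 and was met by 5.92% of genes. Agt did not pass over all samples, and its differences ran in opposite directions in different sets. The limma p-values measure the spread between samples after the shift and scaling, each sample taken here as 1 mouse. Since the level of the sets had been removed and the fit has no term for it, these p-values may be too small.

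**Figure D1:**
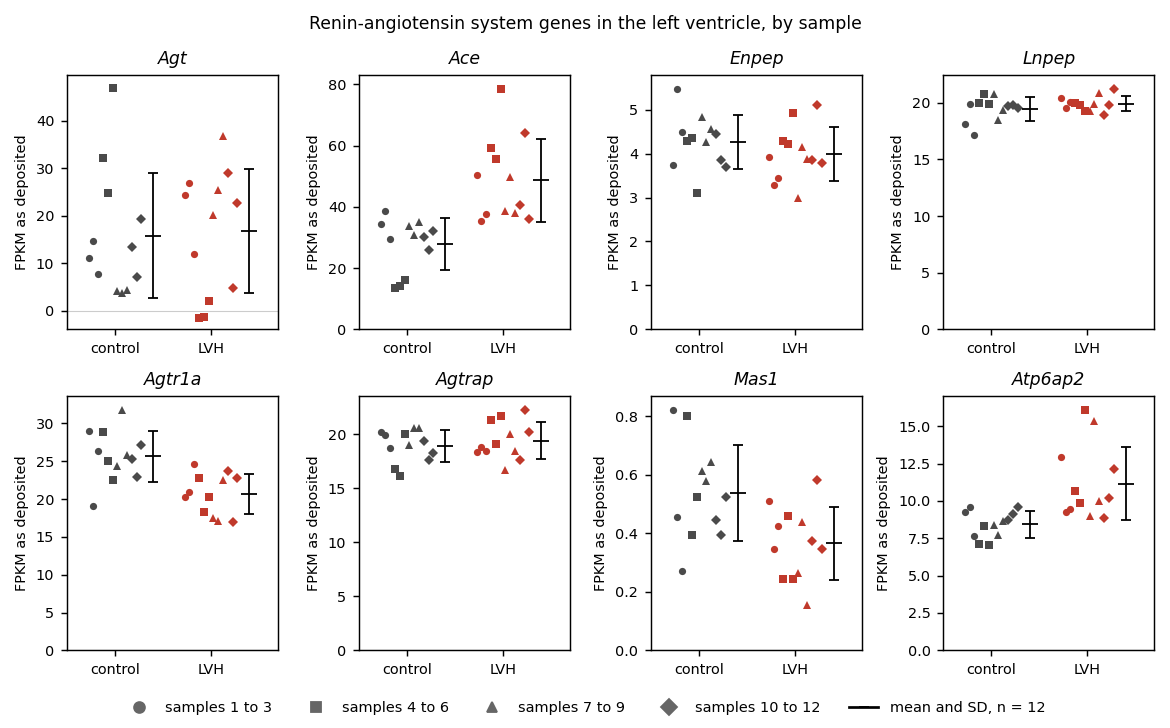
Level of each of the 8 genes in FPKM as deposited (vertical axes) in the 12 control and 12 hypertensive-LVH samples, with marker shapes for the 4 sets and bars for mean and SD. All hypertensive-LVH samples lie above the control median for Ace and Atp6ap2 and below it for Agtr1a. Samples 4 to 6 lie at the ends of the range for Agt and Ace. These positions compare samples across sets and depend on the shift.

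The deposited levels of the 8 genes spanned a wide range. In the control group the order of the mean deposited levels, each of which holds an unknown shift, was Ace (27.8 FPKM), Agtr1a (25.7), Lnpep (19.5), Agtrap (18.9), Agt (15.8), Atp6ap2 (8.43), Enpep (4.26) and Mas1 (0.539). Several neighbours in this order did not separate within samples. Ace was above Agtr1a in 8 of 12 control samples, Lnpep above Agtrap in 6, Agtrap above Agt in 8 and Agt above Atp6ap2 in 8, whereas Agtr1a was above Lnpep in 11. At the lower end, Atp6ap2 was above Enpep, and Enpep above Mas1, in all 12 samples of both groups as deposited. Samples of a set share the shift of a gene, so these counts are not independent of each other. In the hypertensive-LVH group Ace stood above Agtr1a in 12 of 12 samples, and Agtr1a was above Lnpep in only 7 of 12.

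Agtr1a had no entry among the RefSeq sequences used for what follows. The sequences before the transcription start are shown for the 2 genes that were higher and for Agt, the precursor. They are the 250 bases upstream of the first RefSeq start, written 5′ to 3′ on the strand of the gene, on build GRCm38.p6. The regions are chr8:124569707-124569956 on the minus strand for Agt, chr11:105967698-105967947 on the plus strand for Ace and chrX:12587509-12587758 on the plus strand for Atp6ap2. Capitals mark the motifs searched on both strands, which were the TATA box TATAAA, the CCAAT box, the GC box GGGCGG, the cyclic AMP element core TGACGT, the steroid receptor half-site AGAACA and the E box CACGTG, and matches may overlap.
Agt: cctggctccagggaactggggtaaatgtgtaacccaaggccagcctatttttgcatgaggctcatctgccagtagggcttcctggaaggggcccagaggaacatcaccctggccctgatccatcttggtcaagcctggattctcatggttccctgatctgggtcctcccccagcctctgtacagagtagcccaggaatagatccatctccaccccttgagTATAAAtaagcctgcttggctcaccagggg
Ace: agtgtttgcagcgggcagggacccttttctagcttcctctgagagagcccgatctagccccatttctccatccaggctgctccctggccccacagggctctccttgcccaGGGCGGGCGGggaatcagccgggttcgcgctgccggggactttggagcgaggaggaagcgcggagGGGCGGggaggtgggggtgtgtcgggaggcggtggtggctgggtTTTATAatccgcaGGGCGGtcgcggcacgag
Atp6ap2: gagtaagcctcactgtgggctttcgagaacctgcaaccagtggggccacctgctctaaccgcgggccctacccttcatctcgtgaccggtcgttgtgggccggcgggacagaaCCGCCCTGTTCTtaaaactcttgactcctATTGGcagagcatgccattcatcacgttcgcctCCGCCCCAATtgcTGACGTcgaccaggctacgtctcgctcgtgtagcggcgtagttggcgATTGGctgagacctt
The Agt sequence holds 1 of these motifs, a TATAAA that begins 30 bases before the start, and TATAAA on either strand occurs in 12.4% of the 32851 RefSeq promoters in the same window. The Ace sequence holds 4 matches to GGGCGG, a motif found in 32.7% of promoters, and TATAAA on the opposite strand, whose match begins 31 bases before the start. The Atp6ap2 sequence holds 3 matches to CCAAT (33.8% of promoters), 2 to GGGCGG, 1 to TGACGT (6.47%) and 1 to AGAACA (16.1%). Its GC content was 59.2%, against 67.2% for Ace and 55.6% for Agt. The matches are letters in a window, and no binding was measured here.

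Angiotensinogen is the only precursor of the angiotensin peptides. Agt lies at chr8:124556534-124569706 on the minus strand (ENSMUSG00000031980.9, GENCODE vM21 on GRCm38, as for all genes below). Its level in the hypertensive-LVH group ranged from -1.45 to 36.7 FPKM with a median of 21.4, and in the control group from 3.81 to 46.9 FPKM with a median of 12.3. The groups overlapped over almost the whole range, and the means of 16.8 ± 13.0 and 15.8 ± 13.1 FPKM (SD, n = 12) were close together. The difference on the log2(FPKM + 1) scale was -0.27 ± 0.59 (SE), with a limma adjusted p of 0.749, and leaving out hypertensive-LVH sample 4 or 5 turned it to 0.04. Of the hypertensive-LVH samples, 7 of 12 lay above the control median.

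Within the sets, however, the groups separated for Agt in samples 4 to 6 and 7 to 9, and in opposite directions. In samples 4 to 6 the control values were 32.1, 24.8 and 46.9 FPKM, and the hypertensive-LVH values were -1.45, -1.19 and 2.03 FPKM. All 3 control samples of this set were far above all 3 hypertensive-LVH samples, the opposite of the other sets. In samples 7 to 9 the control values were 4.22, 3.81 and 4.40 FPKM, and the hypertensive-LVH values were 20.2, 25.3 and 36.7 FPKM, again without overlap but with the hypertensive-LVH group higher. In samples 1 to 3 the means were 21.1 FPKM in the hypertensive-LVH group and 11.2 FPKM in the control group, and in samples 10 to 12 they were 18.8 and 13.4 FPKM, both with overlap. Over all genes, the share whose groups did not overlap within a set was, in the order of the sets, 16.8%, 47.6%, 27.0% and 21.0%.

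The difference in Agt on the log2 scale was thus 0.82, -4.57, 2.43 and 0.25 in the 4 sets in order, where 2 negative values of samples 4 and 5 entered as 0. The interaction of group and set had a limma adjusted p of 1.86e-05, and 7.49% of all genes passed this test. Before the shift and scaling, the hypertensive-LVH group was 54.7 FPKM below the control group in samples 4 to 6, and 10.5, 18.8 and 3.49 FPKM above it in the sets 1 to 3, 7 to 9 and 10 to 12. The mean difference over the sets was -5.49 FPKM, with an exact permutation adjusted p of 0.625. On that scale the 3 control samples of the set 4 to 6 stood 52.7, 40.7 and 76.9 FPKM above the lowest sample of the set, which was a hypertensive-LVH sample. Which of the groups of that set stood apart from the other sets cannot be told apart, because the level of each set was lost in the shift.

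Without samples 4 to 6, Agt was higher in the hypertensive-LVH group, at 22.4 ± 9.40 against 9.56 ± 5.45 FPKM (SD, n = 9). The difference was then 1.17 ± 0.34 (SE) on the log2(FPKM + 1) scale with a limma adjusted p of 0.0196, where 20.1% of 14004 genes passed. In this fit, which leaves out the set with the reversed direction after its values were known, the interaction of group and set had an adjusted p of 0.662, and it passed in 3 genes (0.0214%). Fat tissue is a known source of Agt RNA, and none of 5 adipocyte markers tested passed between the groups in limma (0 at an unadjusted p under 0.05, and 0 by the Wilcoxon rank-sum test). Their summed level ranged from 0.285 to 16.7 FPKM with ANG II and from 0.07 to 23.8 FPKM in the control group. In the set 4 to 6 its mean was 8.13 FPKM with ANG II and 0.522 FPKM in the controls, and over all sets Adipoq was at or below 0 in 3 control samples. Ucp1, a marker of brown fat, was at or below 0 in 8 samples of each group. The part of fat in the values of Agt was not tested.

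**Figure D2:**
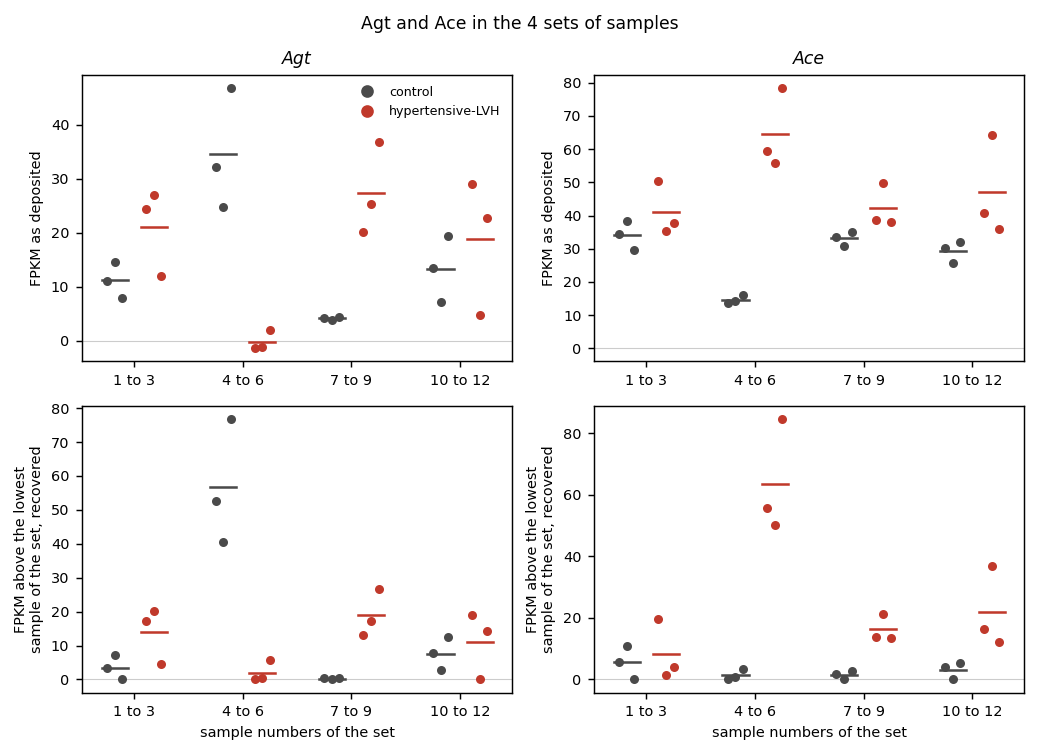
Agt (left) and Ace (right) in each set of 3 control and 3 hypertensive-LVH samples, as deposited FPKM (upper row) and as FPKM above the lowest sample of the set before the shift (lower row), with lines at the group means. For Agt the hypertensive-LVH samples 4 to 6 lie far below the controls and those of samples 7 to 9 above them, whereas for Ace the hypertensive-LVH mean is higher in all 4 sets and most so in samples 4 to 6.

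Ace, the dipeptidyl carboxypeptidase that makes ANG II and degrades bradykinin, is bound to the surface of endothelial cells. Its gene lies at chr11:105967945-105989964 on the plus strand (ENSMUSG00000020681.14) and overlaps the antisense gene Gm11651, whose reads cannot be told apart because no strand of counting is stated. Ace ranged from 35.4 to 78.5 FPKM (median 45.2) after ANG II, and from 13.6 to 38.5 FPKM (median 30.6) in the control group. As deposited, and ranked across sets, all 12 hypertensive-LVH samples were above the control median and 8 were above the highest control sample. Likewise, 11 control samples were below the lowest hypertensive-LVH sample. Non-overlap of the groups over all 24 samples was met by 0.756% of all genes, and by none of these 8.

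The means of Ace were 48.7 ± 13.6 FPKM and 27.8 ± 8.59 FPKM (SD, n = 12) as deposited. The difference was 0.82 ± 0.17 (SE) on the log2(FPKM + 1) scale, with a limma adjusted p of 8.83e-04. Ace was higher in every set, by 0.26, 2.06, 0.33 and 0.62 on this scale, and the sets differed in size with an interaction adjusted p of 0.000302. In samples 4 to 6 the hypertensive-LVH values of 59.3, 55.7 and 78.5 FPKM stood against control values of 13.6, 14.2 and 15.9 FPKM. Before the shift the differences were 2.87, 62.1, 14.7 and 18.7 FPKM in the 4 sets, and the mean of 24.6 FPKM gave an exact permutation p of 1.88e-04 and an adjusted p of 0.00362, where 26.2% of 13152 genes passed.

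Without samples 4 to 6 the difference in Ace fell to 0.40 ± 0.10 (SE) on the log2 scale, with a limma adjusted p of 0.0091, and its means were 43.4 ± 9.58 and 32.2 ± 3.67 FPKM (SD, n = 9). It then no longer met the study's threshold on the fold change, and the interaction without that set had an adjusted p of 0.895. Of 7 endothelial markers, 2 were higher (Pecam1 and Fabp4), 1 was lower (Kdr) and 4 did not pass. Their summed level was 934 to 1573 FPKM in the hypertensive-LVH group and 869.7 to 1190 FPKM in the control group, with no marker at 0 in any sample, and its part in the result was not tested. In whole ventricle, a change in the number of cells that hold a transcript and a change in its amount per cell cannot be told apart, which holds for every gene described here.

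Cma1, the mast cell chymase that can form ANG II, ranged from 0.804 to 4.18 FPKM in the ANG II mice and from 0.150 to 2.48 FPKM in the control group. Its difference was 0.21 ± 0.20 (SE) on the log2(FPKM + 1) scale with a limma adjusted p of 0.435, and it varied between sets with an interaction adjusted p of 0.0108. Without samples 4 to 6 the difference in Cma1 was -0.23 on the log2 scale (adjusted p of 0.277), and the interaction had an adjusted p of 0.891. Ren1, the renin gene, was not analysed here.

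Enpep and Lnpep encode the membrane aminopeptidases that cut angiotensins from the amino end, Enpep at the aspartate of ANG II and Lnpep as the insulin-regulated aminopeptidase that binds angiotensin IV. Enpep lies at chr3:129269175-129332720 on the minus strand (ENSMUSG00000028024.14), with the processed pseudogene Gm42628 within it. It ranged from 2.98 to 5.12 FPKM (median 3.90) after ANG II, and from 3.11 to 5.47 FPKM (median 4.32) in the control group. Although 10 of 12 hypertensive-LVH samples were below the control median, the difference was -0.08 ± 0.07 (SE) on the log2 scale with a limma adjusted p of 0.404, and its sign was negative in 2 sets and positive in the other two. Quantile normalization alone brought Enpep past the threshold, at -0.18 with an adjusted p of 0.015. The difference in Enpep before the shift was -0.271 FPKM, with an exact permutation adjusted p of 0.493.

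Lnpep lies at chr17:17521410-17625050 on the minus strand (ENSMUSG00000023845.7) and overlaps the unclassified gene Gm49784. It ranged from 19.0 to 21.2 FPKM after ANG II (median 19.9) and from 17.1 to 20.8 FPKM in the control group (median 19.8). The difference of 0.03 ± 0.03 (SE) on the log2 scale did not pass the limma test, with an adjusted p of 0.425. Within the sets in order, the difference in Lnpep was 0.12, -0.04, 0.03 and 0.02 on this scale. Before the shift its difference of 0.71 FPKM had an exact permutation p of 0.0494 and an adjusted p of 0.123.

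Agtr1a encodes the major AT1 receptor of the mouse, a receptor coupled to Gq. It lies at chr13:30336441-30382867 on the plus strand (ENSMUSG00000049115.15), and the sense intronic gene Gm48161 lies within it. Its level ranged from 17.0 to 24.7 FPKM (median 20.6) after ANG II, and from 19.0 to 31.8 FPKM (median 25.6) in the control group. All 12 hypertensive-LVH samples were below the control median, and 8 of 12 control samples were above the highest hypertensive-LVH sample. The control sample at 19.0 FPKM was sample 2, the next lowest being 22.5 FPKM.

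Agtr1a fell from 25.7 ± 3.36 to 20.7 ± 2.68 FPKM (SD, n = 12) as deposited. The difference was -0.30 ± 0.07 (SE) on the log2 scale, with a limma adjusted p of 0.00301. The differences in the 4 sets were -0.15, -0.30, -0.50 and -0.25, all negative, and no variation between sets passed the test (interaction adjusted p of 0.638). In samples 7 to 9 the groups did not overlap, at 17.5, 17.1 and 22.5 FPKM against 24.3, 31.8 and 25.8 FPKM. The difference without samples 4 to 6 was again -0.30 (adjusted p of 0.0233), and before the shift it was -4.70 FPKM with an exact permutation adjusted p of 0.0201.

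Pericytes of the heart are known to carry AT1 receptors, and pericyte markers moved along with Agtr1a in part. Vtn, Kcnj8 and Abcc9 were lower, Cspg4 was higher, and Rgs5, Notch3 and Pdgfrb did not pass, so that of 7 markers 3 were lower and 1 was higher. Their summed level was 234 to 309 FPKM in the hypertensive-LVH group and 241 to 318 FPKM in the control group, with none at 0 in any sample. Of 7 fibroblast markers 4 were higher and none was lower. Their part in the lower level of Agtr1a was not tested.

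Agtrap encodes a protein that binds the tail of the AT1 receptor and promotes its internalization. It lies at chr4:148077061-148088031 on the minus strand (ENSMUSG00000029007.8). It ranged from 16.7 to 22.3 FPKM (median 19.0) after ANG II, and from 16.1 to 20.6 FPKM (median 19.2) in the control group. The groups overlapped, and the difference of 0.03 ± 0.05 (SE) on the log2 scale had a limma adjusted p of 0.616. Its sign was negative in samples 1 to 3 and 7 to 9 and positive in the other sets. Before the shift the difference was 0.383 FPKM, with an exact permutation adjusted p of 0.698.

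Mas1, the receptor for angiotensin-(1-7), had the lowest deposited level of the 8 genes. It lies at chr17:12841079-12868143 on the minus strand (ENSMUSG00000068037.11) and overlaps the antisense transcript Airn and the miRNA gene Gm24085, whose reads cannot be told apart from its own. Its level ranged from 0.155 to 0.581 FPKM after ANG II (median 0.360) and from 0.271 to 0.821 FPKM in the control group (median 0.524). The ranges overlapped, and 11 of 12 hypertensive-LVH samples were below the control median. Means were 0.366 ± 0.124 and 0.539 ± 0.164 FPKM (SD, n = 12).

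The difference in Mas1 was -0.17 ± 0.06 (SE) on the log2(FPKM + 1) scale, which understates the change of so low a gene, with a limma adjusted p of 0.0259. It was negative in all 4 sets, at -0.07, -0.25, -0.33 and -0.03, but the call was lost without samples 4 to 6 (adjusted p of 0.136), without samples 7 to 9 (0.194, where 27.1% of all genes passed) and in the exact permutation test before the shift (-0.158 FPKM, adjusted p of 0.0738). With samples 7 to 9 left out the difference was -0.12, and with samples 4 to 6 left out it was -0.14.

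Atp6ap2, the (pro)renin receptor, is also an accessory subunit of the vacuolar proton pump. It lies at chrX:12587801-12617049 on the plus strand (ENSMUSG00000031007.2). Its level ranged from 8.86 to 16.1 FPKM (median 10.1) after ANG II, and from 7.07 to 9.60 FPKM (median 8.52) in the control group. All 12 hypertensive-LVH samples were above the control median, and 8 were above the highest control sample. The upper tail was made by 4 samples, at 16.1, 15.4, 12.9 and 12.2 FPKM, one from each set.

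The means of Atp6ap2 were 11.2 ± 2.46 and 8.43 ± 0.896 FPKM (SD, n = 12) as deposited. The difference of 0.35 ± 0.09 (SE) on the log2 scale had a limma adjusted p of 0.00329, and it was positive in every set, at 0.22, 0.61, 0.40 and 0.16. It held without samples 4 to 6 (0.26, adjusted p of 0.0444) and before the shift (2.75 FPKM, exact permutation adjusted p of 0.00638), and the sets did not differ past the threshold (interaction adjusted p of 0.520).

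**Figure D3:**
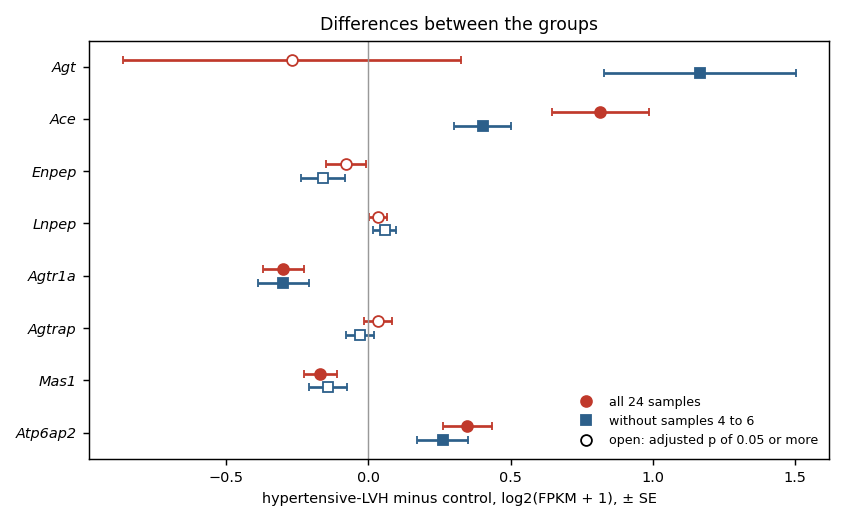
Difference between the groups in log2(FPKM + 1) with its SE (horizontal axis) for each of the 8 genes over all 24 samples and without samples 4 to 6, with filled points where the limma adjusted p is under 0.05. Without this set Agt moves from -0.27 to 1.17, Ace falls from 0.82 to 0.40 and Mas1 loses its call, whereas Agtr1a stays at -0.30.

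The other genes of the pathway were taken from 6 lists, each without the 8 genes above, and their counts stand against the 20.9% of all genes that were higher and the 12.6% that were lower. Among the proteases that form angiotensins, 1 of 4 genes tested was higher and none was lower, this being Ctsd (cathepsin D, an aspartic protease related to renin), at 677 ± 75.1 against 601 ± 59.0 FPKM (SD, n = 12, 0.17 on the log2 scale, limma adjusted p of 0.0358). It did not pass without samples 4 to 6 (adjusted p of 0.231).

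Of 13 other peptidases that convert or degrade angiotensins, 5 were higher, none was lower and 8 did not pass, with a median difference of 0.15. Under quantile normalization 4 were higher and 1 was lower, this being Mme (neprilysin, -0.24, limma adjusted p of 0.00818), named after its values were seen. The highest ranked was Prcp, the prolylcarboxypeptidase that removes the last residue of ANG II, at 10.5 ± 3.06 against 6.96 ± 1.56 FPKM (SD, n = 12). Its difference was 0.51 ± 0.13 (SE) with a limma adjusted p of 0.0048. Ctsa (cathepsin A) was higher by 0.25, Nln (neurolysin) by 0.15 and Dpp3 (dipeptidyl peptidase 3, which degrades ANG II) by 0.22, and Dpp7, named after its values were seen, by 0.38. None of the 5 passed in limma without samples 4 to 6 (2 of the 13 had an unadjusted p under 0.05), where Prcp stood at 0.27 with an adjusted p of 0.153.

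Of 6 other receptors and receptor-binding proteins, 2 were higher and none was lower. Mtus1, which encodes a protein that interacts with the AT2 receptor, rose from 56.5 ± 5.41 to 73.4 ± 6.22 FPKM (SD, n = 12). Its difference of 0.37 ± 0.05 (SE) had a limma adjusted p of 1.35e-05, and without samples 4 to 6 it was 0.31 with an adjusted p of 0.0017. Bdkrb2, the bradykinin B2 receptor, was very low at 0.320 ± 0.194 and 0.157 ± 0.105 FPKM and was higher by 0.18 (adjusted p of 0.0383, lost without samples 4 to 6 at 0.0833). Agtr1b was not analysed here.

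Of 21 genes for the coupling and desensitization of the AT1 receptor, 5 were higher, 3 were lower and 13 did not pass, with a median of 0.07. Gna13 (0.27, limma adjusted p of 7.68e-04) and Gnai2 (0.27, adjusted p of 0.0011), both alpha subunits of G proteins, and Prkcd (0.43, adjusted p of 0.00129), a protein kinase C, were higher, and Gna12, another alpha subunit, fell by 0.20 on the log2 scale (adjusted p of 0.00305). Each of these 4 passed without samples 4 to 6 as well. Gnaq itself, the alpha subunit of Gq, did not pass, at 9.90 ± 1.27 against 8.77 ± 1.14 FPKM (SD, n = 12, adjusted p of 0.0846), a gene named here after its values were seen. The remaining calls, also named after their values were seen, were Arrb2 (0.59) and Grk5 (0.31), which turn off activated receptors, on the higher side, and Rgs4 (-0.27), a brake on G proteins, and Gna11 (-0.11), a close relative of Gnaq, on the lower side. Without samples 4 to 6, Rgs4 passed (adjusted p of 0.0277), and Arrb2 (0.34, adjusted p of 0.112), Grk5 (0.15, adjusted p of 0.414) and Gna11 (adjusted p of 0.067) did not.

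Downstream of aldosterone, the steroid that ANG II releases from the adrenal gland, 1 of 4 genes was higher and 1 was lower. Nr3c2, the mineralocorticoid receptor, ranged from 2.02 to 4.09 FPKM in the ANG II mice and from 2.84 to 5.03 FPKM in the control group, with 11 of 12 hypertensive-LVH samples below the control median. Its difference was -0.31 ± 0.09 (SE) with a limma adjusted p of 0.00794, and -0.40 without samples 4 to 6 (adjusted p of 0.00514). Within the sets in order it was -0.504, -0.0257, -0.675 and -0.0249, so it was near 0 in samples 4 to 6 and 10 to 12. The interaction of group and set did not pass (limma adjusted p of 0.0718). Before the shift the set differences were -1.63, 0.273, -1.70 and -0.213 FPKM. On that scale Nr3c2 missed the threshold (exact permutation adjusted p of 0.0555). Sgk1, a kinase that mineralocorticoids induce, was higher by 0.39 ± 0.11 (SE, adjusted p of 0.0061), and the call was lost without samples 4 to 6 (0.094).

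Among 16 subunits of the vacuolar proton pump, which Atp6ap2 also serves, 4 were higher, 1 was lower and 11 did not pass, with a median of 0.05, the same as over all genes. Atp6v1h was higher by 0.37 ± 0.06 (SE, limma adjusted p of 4.74e-05), about as much as Atp6ap2, and Atp6v1c1, Atp6v0d1 and Atp6v1a were higher by 0.20, 0.17 and 0.30. Of these, Atp6v1h passed without samples 4 to 6 and the other three did not. Among genes named after their values were seen, Atp6v0a2 fell by 0.11 on the log2 scale, and Atp6ap1, the other accessory subunit, stood at 101 ± 7.81 against 98.1 ± 7.85 FPKM (SD, n = 12) with an adjusted p of 0.538.

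**Figure D4:**
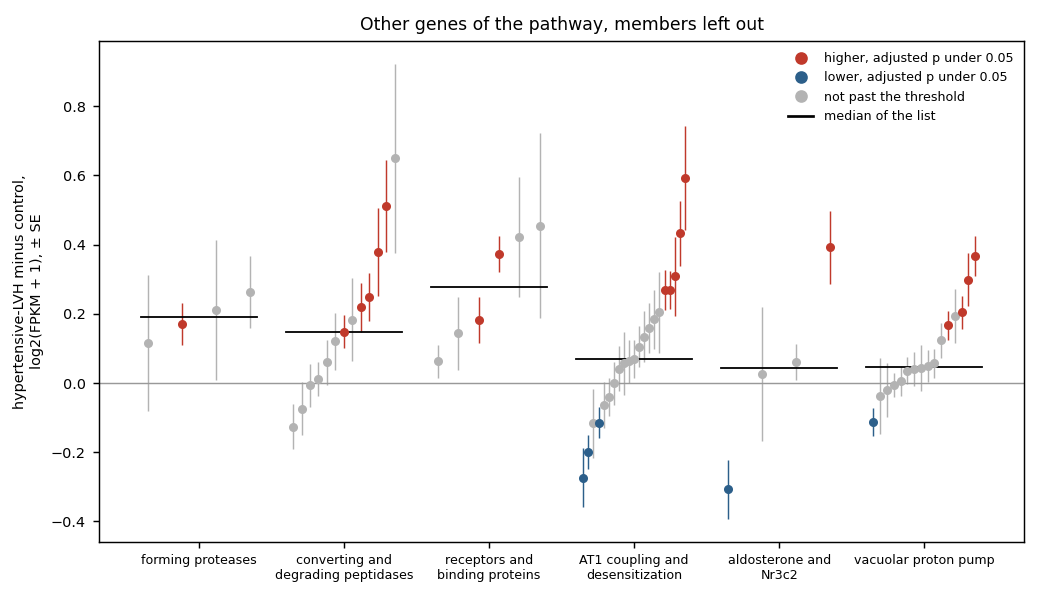
Difference between the groups in log2(FPKM + 1) with its SE (vertical axis) for the other genes of the pathway in 6 lists, in order of size within each list, with lines at the list medians. Among the peptidases 5 genes passed as higher and 0 as lower, and in the proton pump list, whose median was 0.05, the genes that did not pass lay between -0.04 and 0.19.

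Several cell type markers moved with the groups. All 8 macrophage markers were higher, with a summed level of 331 to 1048 FPKM in the hypertensive-LVH group and of 260 to 606 FPKM in the control group, and 4 of 8 cardiomyocyte markers were lower. Within samples 4 to 6 the mean macrophage sum was 789 FPKM in the hypertensive-LVH group and 275 FPKM in the control group. The mean fibroblast sum was 2004 and 188 FPKM, and both gaps were the widest of the 4 sets. Negative values enter these sums as 0, and Col1a1, Col1a2 and Col3a1 were each at or below 0 in 3 control samples. Without samples 4 to 6, 0 of 8 macrophage markers (4 at an unadjusted p under 0.05) and 1 of 7 fibroblast markers passed in limma. In the same fit 1 of 7 endothelial markers was higher and 1 was lower, and 3 of 7 pericyte and 3 of 8 cardiomyocyte markers were lower. Of the 4 members called over all samples, Ace, Agtr1a and Atp6ap2 passed in this fit and Mas1 did not, and members and markers were not compared by a test. The part of cell composition in these results was not tested.

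The genes whose pattern over the 24 samples was most like that of each member were found after the mean of each group within each set had been removed, by Spearman's rho. The points share the sequencing depth and the shift of their set, and the values are a description. Atp6ap2 had the nearest companions, Mier1 (0.959), Ptbp3 (0.959) and Sgk3 (0.957), and Enpep was followed by Arsj (0.945), Twsg1 (0.903) and Mageh1 (0.902). For Ace they included Ptpra (0.877) and Phactr1 (0.866), and for Agtr1a Car14 (0.861), Pcca (0.837) and Efnb3 (0.814). Lnpep was most like Rhoq (0.863), Impad1 (0.832) and Rragd (0.827), Agtrap most like Tyr (0.846), Mospd3 (0.808) and Armc10 (0.727), and Mas1 most like Treml2 (0.824), Ranbp10 (0.767) and Zdhhc9 (0.756). Agt had the weakest, Cd6 (0.730), Coq10b (0.711) and Nat8l (0.704).

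The 3 companions of Agtr1a were themselves lower in the hypertensive-LVH group, with differences of -0.30 for Car14, -0.25 for Pcca and -0.75 for Efnb3 (limma adjusted p of 0.043, 4.25e-04 and 2.18e-05), although group means had been removed before the likeness was taken. With Pearson's r in place of rho all 3 remained for Agtr1a and for Agtrap, and none for Ace and Mas1. Among the 8 genes the closest pair was Ace and Atp6ap2 (rho of 0.627, 24 samples), followed by Ace and Enpep (0.543).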

How the data were processed

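The 24 samples analysed here, 12 of each group, are RNA of the left ventricle, read from 1 table of 14912 genes. The authors deposited FPKM made, per the labels, with HISAT, Bowtie2 and RSEM, whose versions, genome build and annotation are not given in the sources used here. Because the deposited values had been shifted and scaled within sets of samples, by a step that the sources used here do not describe, they were treated as a score and not as plain FPKM. Read depth is unknown and no counting interval was computed.

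The 8 genes and all lists were chosen with earlier results of these data known. Named were all members, the 4 called genes of each pathway list with the smallest adjusted p, Ren1, Agtr1b, Cma1 and Nr3c2, and the 3 genes most like each member, and some items that this rule names are not reported here.

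The fit used log2(FPKM + 1), after values below 0 had been replaced by 0, for 14026 genes whose mean reached 0.1, in limma 3.58.1 (R 4.3.3) with an intensity trend, two-sided, with Benjamini-Hochberg adjustment over all genes tested and a threshold of 0.05. Printed means and SD of genes use the values as deposited, and summed marker levels use values with those below 0 replaced by 0. The interaction of group and set was an F test in limma over 4 sets. FPKM differences before the shift were recovered from the step between values (0.01 FPKM) for 13152 genes, with no step found for 1556 and several solutions for 204, and tested by exact permutation within sets (160000 relabelings, two-sided). On simulated data, limma recovered 196 of 200 genes changed by 1 on the log2 scale with 6 false calls, and the recovery gave 272 of 300 genes right and 0 wrong. The limma simulation drew independent normal values, without sets or a shift. The recovery simulation was built with the same model that the recovery inverts. Neither can tell whether the deposited values follow its model. Alternatives were another pseudocount (0.1), FPKM without logarithm, no filter or a mean of at least 1, median-ratio and quantile scaling, no trend, the Wilcoxon rank-sum test, the set as a term, the replicate number as a block, and leaving out each set or mouse. Promoters are RefSeq sequences of GRCm38.p6, matched by symbol for 7 of 8 members, and positions are from GENCODE vM21. Python 3.11.15 was used for the rest.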

Additional observations from a re-analysis of the deposited data

Results flagged for a closer look

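The difference between the groups in Agt varied between the 4 sets of samples (limma interaction of group and set, adjusted p of 1.86e-05). The difference ran to lower values in samples 4 to 6 and to higher values in the other sets, and without samples 4 to 6, a choice made after seeing the data, the interaction had an adjusted p of 0.662. The difference in Ace also varied in size between the sets (interaction adjusted p of 0.000302), with the same direction in all 4 sets, and had an adjusted p of 0.895 without samples 4 to 6. No cause of either was tested.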

How the results depend on the processing

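The calls and directions of Ace, Agtr1a and Atp6ap2 held under all 15 alternatives, with adjusted p of 2.96e-04 to 0.0159, 0.00182 to 0.0394 and 0.00192 to 0.0444. The sign of Agt turned on FPKM without logarithm (0.94 FPKM), in the Wilcoxon test (0.76) and without samples 4 to 6 (1.17), and leaving out single mice gave -0.43 to 0.042. Agtrap turned under quantile normalization (-0.0193), in the Wilcoxon test (-0.019) and without samples 4 to 6 (-0.0298), and Lnpep under quantile normalization (-0.0223). Enpep passed under quantile normalization (-0.18). Mas1 lost its call without samples 4 to 6 (-0.14) or 7 to 9 (-0.12) and before the shift (-0.158 FPKM). The count of lower members was 1 in those 3 settings and with a mean of at least 1, where Mas1 is not tested, and the count of called members was 4 without any single mouse. The 23 other pathway genes called became 9 without samples 4 to 6 (6 higher, 3 lower) and 15 before the shift (3 lower), where 2 of the 23 have no recovered value, and the 5 lower ones became 3 with the set as a term and 2 without samples 1 to 3, 7 to 9 or 10 to 12. The cause of these changes was not tested. Same-numbered samples correlated at -0.557 to -0.00109, and 0 of 12 correlated best with their own number. Only group means were removed for this, and the level of each set had been lost in the shift. These correlations therefore cannot tell whether the replicate numbers pair the samples. With the number as a replicate block, 2824 genes passed in place of 4697, Mas1 did not (-0.17, adjusted p of 0.0833), lower members were 1, and other pathway genes were 13, of which 1 was lower. Low levels such as that of Mas1 limit what can be told, since the depth is unknown. The genes nearest in pattern depended on the means removed, and the coefficient of Agt with Cd6 became -0.253 with only group means removed.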

Other observations

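Among the other marker lists, 5 of 5 red blood cell genes, 3 of 5 activated fibroblast genes, 2 of 5 smooth muscle genes, 1 of 6 mast cell genes (Hdc) and 1 of 5 T cell genes (Cd3g) were higher and none was lower. None of 3 atrial, 4 mesothelial or 4 Schwann cell and neuron genes passed in limma (0, 0 and 1 at an unadjusted p under 0.05) or by the Wilcoxon rank-sum test. Without samples 4 to 6, 5 red blood cell, 1 activated fibroblast, 0 smooth muscle, 1 mast cell and 0 T cell genes were higher. In that fit 1 mesothelial gene (Wt1) was higher as well. Under quantile normalization Hdc and Cd3g did not pass in limma (adjusted p of 0.068 and 0.091), and Dbh passed as lower (0.0209).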
